A study of Homo sapiens with 42 samples.

Results

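N6-methyladenosine (m6A) peaks were examined in the transcripts of 40 genes for proteins that hepatocytes secrete into plasma: albumin, alpha-fetoprotein, apolipoproteins, carrier proteins, fibrinogen chains and other coagulation proteins, complement components, inter-alpha-trypsin inhibitor heavy chains, serpins and other protease inhibitors, and adhesive proteins. The genes were given as 40 Ensembl identifiers, and every peak with one of these identifiers was kept, whatever its strength. 35 of the 40 genes had a peak in at least 1 of 7 peak lists, among 17005 genes with a peak in any list, and they held 574 of 211410 listed peaks.

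m6A-seq pulls down fragmented mRNA with an antibody against m6A (the IP) and compares it with RNA taken before the pull-down (the input). The cells were HepG2, an established human line from a hepatocellular carcinoma, infected with lentivirus carrying a short hairpin RNA (shRNA) and selected with puromycin, in the control conditions too. The shRNAs were a non-specific control, METTL3, METTL14, WTAP and SETD2 #1, and, in a second set, SETD2 #2 with a control of its own. Each of the 14 groups (input and IP of 7 conditions) had 3 libraries, 42 in all, and the authors called peaks on replicates 1 to 3 together. There was thus 1 list per condition and no replicate error, so differences between lists were not tested. METTL3, METTL14, WTAP and SETD2 #1 were all compared with the same control list. The labels name no clones. The files used here hold no transcript or protein level, so the extent of each knockdown was not checked.

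The lists name genes by identifier only, and the reference table used here (RefSeq, GRCh38.p14) does not list those identifiers. Gene symbols were assigned from knowledge of the identifiers and then checked by place. All 35 identifiers with peaks lay on the chromosome that RefSeq gives for the symbol, the 30 that shared a chromosome with another of these genes lay in the same order, and 24 of 24 with a listed strand had their peaks on it. A2M, AMBP, HP, TTR and VTN were alone on their chromosome, so their order could not be checked.

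METTL3 is the catalytic subunit of the nuclear m6A writer, METTL14 its partner in RNA binding, and WTAP an adaptor of the complex. SETD2 trimethylates histone H3 at lysine 36, a mark of transcribed gene bodies. The liver makes most plasma proteins, from very abundant mRNAs, and secretes them through the endoplasmic reticulum and Golgi.

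5 of the 40 genes had no peak in any of the 7 lists. Albumin, the main carrier protein of plasma, and alpha-fetoprotein, its fetal counterpart, are both among the 40 and were not among the 35 with peaks. The other members without a peak are given by identifier, since their names could not be checked: ENSG00000091583, ENSG00000000971 and ENSG00000122194. Of 7 hepatocyte marker genes, APOA1, APOB, TF and SERPINA1 had a peak in every list, TTR in 3 lists, and albumin and alpha-fetoprotein in none. Peak lists show where m6A enrichment was called, so a gene without a peak may be expressed or not.

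The number of plasma protein genes with a peak was 34 in the control list, 29 in METTL3, 27 in METTL14, 26 in WTAP, 30 in SETD2 #1, and 32 in both the second control and SETD2 #2. 23 of the 35 genes (65.7%) had a peak in all 7 lists, against 57.3% of all genes with a peak in any list. These 23 comprised 6 of 8 apolipoproteins, 5 of 10 carrier and transport proteins, 4 of 7 coagulation and fibrinolysis genes, 2 of 3 complement genes, 1 of 4 inter-alpha-trypsin inhibitor heavy chains, 4 of 6 protease inhibitors and 1 of 2 adhesive proteins. The other 12 genes with peaks lacked one in at least 1 list.

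**Figure D1:**
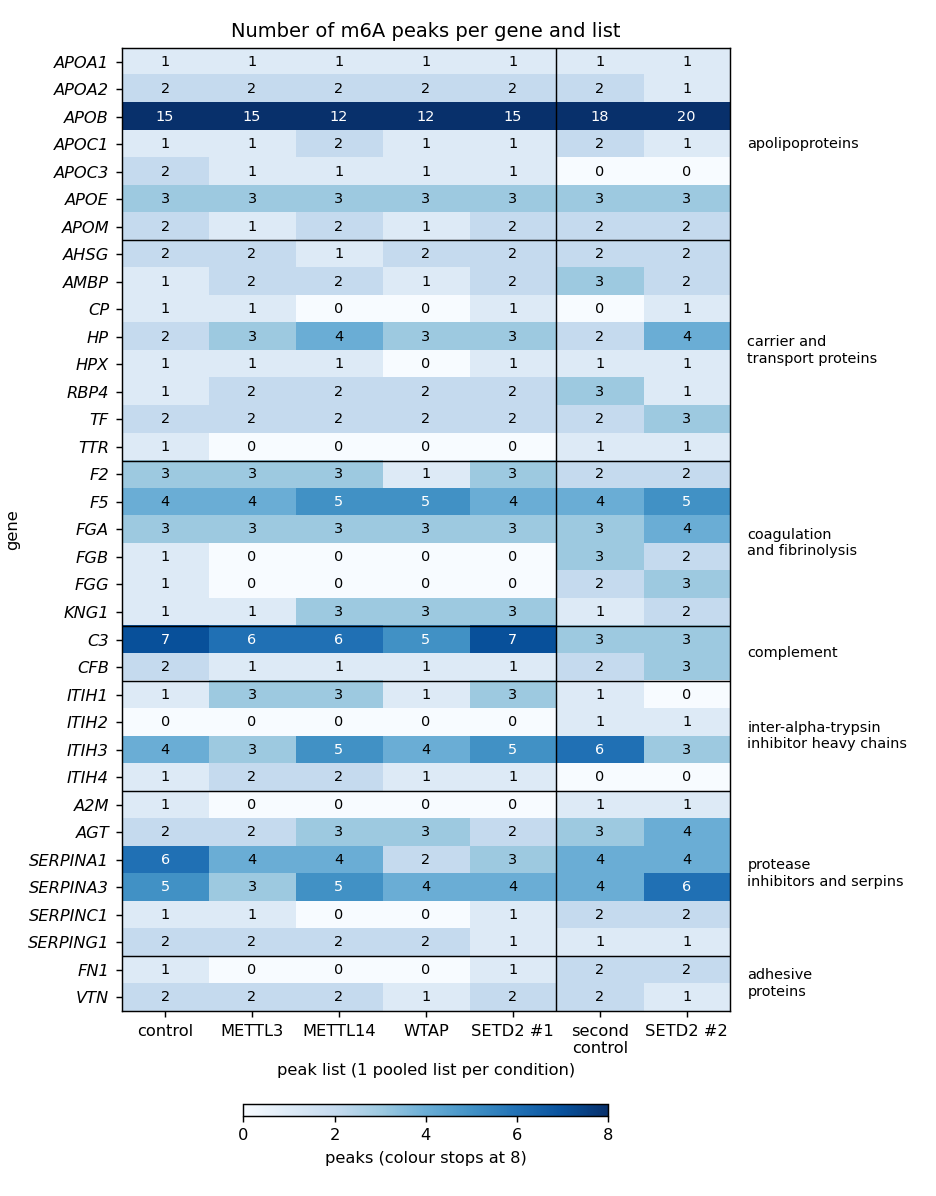
Number of m6A peaks (printed in each cell, with colour stopping at 8) of the 35 plasma protein genes with a peak, by role (rows), in the 7 lists (columns, second set right of the line). APOB holds 12 to 20 peaks in every list, and A2M, FGB, FGG and TTR have none in the 4 knockdown lists of the first set.

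Peaks of these genes numbered 85 in the control list, 77 in METTL3, 82 in METTL14, 67 in WTAP, 82 in SETD2 #1, 89 in the second control and 92 in SETD2 #2. The median gene had 2 peaks in each list, the same as all genes, while the mean was 2.5 against 2.31 in the control list and 3.04 against 2.31 in METTL14. Without APOB the mean was 2.12 in the control list, below that of all genes. It was also below in METTL3 (2.21 against 2.28), WTAP (2.2 against 2.27) and the second control (2.29 against 2.31). It stayed above in METTL14 (2.69), SETD2 #1 (2.31 against 2.23) and SETD2 #2 (2.32 against 2.26). APOB, the structural protein of very low density lipoprotein, held the most, with 15, 15, 12, 12, 15, 18 and 20 peaks in the lists in the order control, METTL3, METTL14, WTAP, SETD2 #1, second control and SETD2 #2. That order is kept for all values given over the 7 lists.

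The peaks of these genes combined low fold enrichment with strong p-values. Fold enrichment is the authors' ratio of IP over input. Its median was 3.13 for these genes against 6.79 for all control peaks, and 2.65 to 3.4 against 3.81 to 7.02 over the 7 lists. The median log10 p of IP against input was -55.6 for these genes and -11.8 for all peaks of the control list. Without APOB these genes had a median fold of 3.27 and a median log10 p of -31.8. A fold enrichment below 2 was listed for 25.9% of their control peaks and 7% of all control peaks. A log10 p of -100 or lower was listed for 43.5% of their control peaks and 15.7% of all. The share passing into the authors' shorter list, which keeps peaks that reach 2-fold and a p-value of 1e-05 or lower, was 70.6% for these genes and 69.3% for all in the control list. In the other lists it was lower for these genes, at 64.9% against 71.1% in METTL3, 57.3% against 69.3% in METTL14, 59.7% against 70.3% in WTAP, 64.6% against 68.1% in SETD2 #1, 58.4% against 66.2% in the second control and 62% against 62.2% in SETD2 #2.

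**Figure D2:**
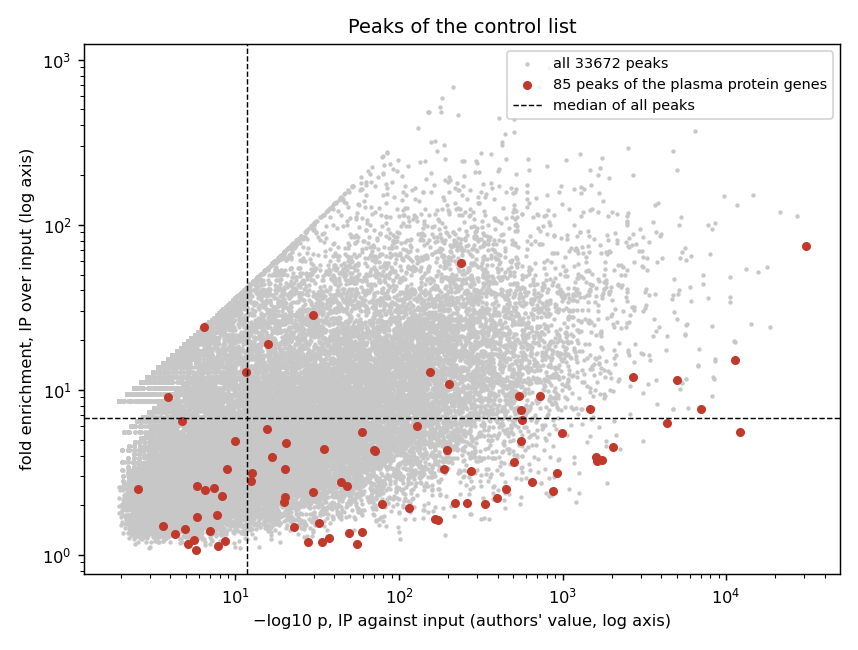
Fold enrichment of IP over input against −log10 p (log axes) for all 33672 peaks of the control list (grey) and the 85 peaks of the plasma protein genes (red); dashed lines are the medians of all peaks. 68 of the 85 red points lie below the median fold of 6.79, and 63 are at or better than the median p.

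Among the lipid carriers, APOE, the apolipoprotein of remnant particles that binds the low density lipoprotein receptor, had the lowest p of all 35 genes in the control list. Its main peak spanned chromosome 19 from 45410512 to 45412650 on the plus strand (hg19, as are all coordinates here), with 1126 bases in 3 blocks, the same blocks in all 7 lists. Its fold enrichment was 74.3, 156, 69.8, 143, 63.5, 19.5 and 8.61. All 5 values of the first set lay above both values of the second set, whose list medians were also lower, at 4.33 and 3.81 against 5.32 to 7.02. Another pair of APOE peaks nearer the 5' end was present in all lists too. The one from 45409773 had a fold of 3.66, 43, 19.8, 108, 26.9, 4.07 and 2.83, lowest in both controls and SETD2 #2.

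APOA1, the main protein of high density lipoprotein, had 1 peak of 1128 to 1216 bases in each list. In the control list it lay on chromosome 11 from 116706467 to 116708458 (minus strand), and its 3' border was the same in all lists. Its fold enrichment was 15.1, 21.6, 11.2, 9.33, 23.2, 9.48 and 6.46. The METTL14 and WTAP values and both second-set values lay below the control value, and METTL3 and SETD2 #1 above it. APOA2, the second protein of that particle, had its strongest peak on chromosome 1 from 161192229 to 161192978 (minus strand), with a fold of 5.54, 5.92, 5.67, 4.19, 4.68, 3.22 and 8.26. In the SETD2 #2 list this peak had merged with the one upstream of it, and covered 945 bases against 325 to 532 in the others. Peaks of APOA1 in all lists, and of APOA2 in both lists of the second set, shared positions with an opposite-strand peak of another gene.

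APOB combined 1 strongly enriched 5' peak with many weak ones. The 5'-most peak had a fold of 58.7, 34.8, 11.5, 56.9, 18.6, 50 and 18.6, and all other APOB peaks of the control list were between 1.55 and 6.29. The lowest p belonged to another peak, near the 3' end, on chromosome 2 from 21225589 to 21226038 (minus strand), with a fold of 6.29, 5.49, 4.85, 3.82, 5.63, 4.76 and 4.7. Overlapping peaks of the 7 lists formed 20 sites in APOB, of which 12 were present in every list. METTL14 and WTAP each lacked 3 of the 15 control sites, and METTL3 and SETD2 #1 held all 15. In total the APOB peaks covered 4419, 4121, 2620, 2440, 4000, 4424 and 5951 bases.

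**Figure D3:**
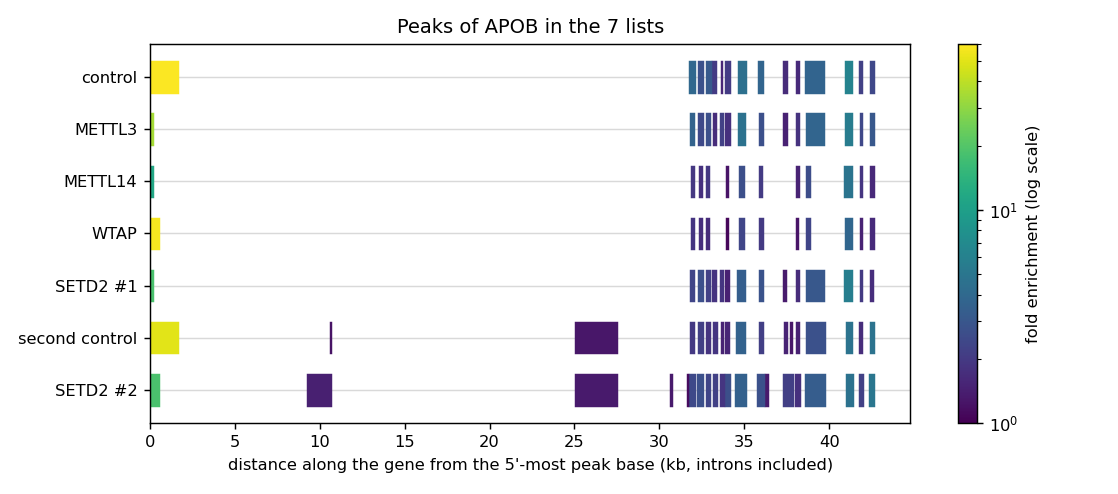
Peaks of APOB in the 7 lists (rows) by distance from the 5'-most peak base in kb, introns included; each bar is 1 peak from start to end and its colour the fold enrichment on a log scale. The 5' peak stands apart from the group of weaker peaks toward the 3' end, and METTL14 and WTAP have 12 peaks each against 15 in the control.

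The other apolipoproteins had at most 2 peaks in a list. APOC1, an inhibitor of lipoprotein uptake, had 1 or 2 peaks in every list, and its best fold was between 2.1 and 3.08, but its peaks shared bases with those of another gene on the same strand. APOC3, an inhibitor of lipoprotein lipase, had peaks in the first set and none in either list of the second. The highest fold of an APOC3 peak was 2.47, 6.07, 2.54, 3.27 and 2.57 in the 5 first-set lists, and 1 of its 2 control peaks was absent from all 4 knockdown lists. APOM, which carries sphingosine 1-phosphate, had 2, 1, 2, 1, 2, 2 and 2 peaks, and the one missing in METTL3 and WTAP was its 3' peak. The highest fold of an APOM peak was 3.94, 2.31, 3.26, 2.53, 4.98, 5.35 and 9.37, above the list median in both lists of the second set and below it in the first set. In every list an APOM peak shared positions with an opposite-strand peak of another gene.

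Among the carriers of metals, heme and vitamins, TF (transferrin, the iron carrier) was the most even. Its strongest peak, on chromosome 3 from 133465010 to 133466065 (plus strand), had a fold of 9.17, 12.2, 7.72, 6.79, 8.04, 8.88 and 6.23. It was the 5'-most TF peak in all 7 lists. HP (haptoglobin, which binds free haemoglobin and has a near-identical neighbour that could share reads) had its strongest peak at its 3' end on chromosome 16, from 72094028 to 72094954, with a fold of 5.46, 4.77, 4.15, 3.77, 4.82, 8.02 and 5.86. In the 4 knockdown lists of the first set that stretch was split into 2 peaks, the larger covering 329 to 419 bases against 927 in the control.

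RBP4, the plasma carrier of retinol, differed between the sets. Its strongest control peak had 6 blocks and 740 bases on chromosome 10 between 95353745 and 95361381 (minus strand), with a fold of 12 and a log10 p of -2680. The 4 knockdown lists of the first set held a peak over the same stretch with 4 blocks, a fold of 5.11 to 9.34 and a log10 p of -9090 to -2790. The second control had only 3 small RBP4 peaks, the best with a log10 p of -12.1, and SETD2 #2 had 1, with a log10 p of -4.62. Both second-set lists thus lacked the broad peak. What else differed between the sets cannot be told apart from this.

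AMBP, the precursor of alpha-1-microglobulin and bikunin, had its strongest control peak on chromosome 9 from 116837295 to 116840575 (minus strand), with a fold of 4.9, 4.09, 2.35, 1.91, 3.47, 2.6 and 2.13 for the strongest peak of each list. The METTL3 peak had the same start and end, and the peak was shortest in WTAP, at 178 bases against 474 in the control. AHSG (fetuin-A, an inhibitor of mineral deposition) had its strongest peak on chromosome 3 from 186330801 to 186331039, with a fold of 2.06, 1.69, 2.8, 1.88, 1.59, 3.58 and 2.92. Its 3' peak was absent from METTL14 alone.

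3 carriers lacked a peak in some lists. TTR (transthyretin, the carrier of thyroxine) had 1 peak in the control, second control and SETD2 #2 lists, with a fold of 3.31, 7.45 and 2.11, and none in the 4 knockdown lists of the first set. CP (ceruloplasmin, the copper carrier) had 1 peak of 2.13- to 3.32-fold in the control, METTL3, SETD2 #1 and SETD2 #2 lists and none in METTL14, WTAP or the second control. HPX (hemopexin, which binds heme) had 1 peak in every list but WTAP, with a fold of 4.93, 2.39, 1.72, 1.53, 8.4 and 1.72 in the others. In METTL3 and METTL14 the HPX peak lay at another site, nearer the 3' end, than in the control.

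Of the fibrinogen chains, which form the fibrin clot together, only FGA (the alpha chain) had peaks in all lists. Its strongest peak was a single block of 840 to 1110 bases, on chromosome 4 from 155506951 to 155508000 (minus strand) in the control list. Its fold was 11.5, 22.1, 10.1, 5.49, 12.4, 9.62 and 5.96, with METTL3 highest and WTAP lowest. FGB and FGG, the beta and gamma chains, had weak peaks in the control list only within the first set: 1 FGB peak of 1.48-fold and 1 FGG peak of 1.5-fold. In the second control they had 3 and 2 peaks, of at most 1.93- and 2.92-fold, and in SETD2 #2 they had 2 and 3, of at most 2.26- and 3.75-fold.

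F5, the cofactor of factor Xa, had 4, 4, 5, 5, 4, 4 and 5 peaks. Its strongest was the 5'-most peak in all 7 lists, with a fold of 12.8, 20.3, 20.7, 9.19, 13.8, 17.6 and 11.1. F2 (prothrombin) had 3, 3, 3, 1, 3, 2 and 2 peaks, so WTAP kept 1 of 3, with a highest fold of 6, 4.02, 3.77, 2.06, 3.6, 10.9 and 2.73. KNG1 (kininogen, the source of bradykinin) had 1, 1, 3, 3, 3, 1 and 2 peaks. Its control peak of 12.9-fold had no counterpart in the second control, and the second control's only peak, of 6.87-fold on chromosome 3 from 186435215 to 186435274, was absent from SETD2 #2. A KNG1 peak of 13.7-fold in SETD2 #1 (log10 p -47), from 186460581 to 186460791, had no counterpart in the control. Peaks at the same site were also listed in METTL14 (5.8-fold, log10 p -2.67) and WTAP (3.86-fold, log10 p -8.91).

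In the complement group, C3, the hub protein of the cascade, had 7, 6, 6, 5, 7, 3 and 3 peaks. Its strongest control peak was at the 5' end, on chromosome 19 from 6718413 to 6723500 (minus strand), with 420 bases in 4 blocks and a fold of 6.59. This 5' site had a peak in all 7 lists, with a fold of 6.59, 3.19, 6.75, 4.79, 2.38, 4.7 and 4.48. In the other lists the lowest-p C3 peak was a different one, at other sites, with a fold of 1.98, 1.78, 1.64, 1.79, 2.38 and 2.22. Both second-set lists lacked C3 sites that all 5 first-set lists shared. CFB, factor B of the alternative pathway, had its strongest peak on chromosome 6 from 31913824 to 31914150, with a fold of 4.32, 6.4, 5.64, 3.6, 2.57, 4.36 and 2.67. The 5 lists of the first set shared these borders, and the weaker of the 2 control peaks was absent from all 4 knockdown lists of the first set and from the second control, and a peak of 4.22-fold overlapped it in SETD2 #2. In the second set, CFB peaks shared bases with those of another gene on the same strand.

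The inter-alpha-trypsin inhibitor heavy chains varied most in presence. ITIH3 had 4, 3, 5, 4, 5, 6 and 3 peaks, and its 3'-most peak was present in all lists with a fold of 5.55, 12.7, 7.61, 8.14, 9.74, 2.98 and 4.25. ITIH1 had 1, 3, 3, 1, 3, 1 and 0 peaks. ITIH2 had 1 peak in each list of the second set (1.32- and 1.46-fold) and none in the first. ITIH4 had 1 or 2 peaks of 12.2- to 24-fold in the first-set lists, with a log10 p no lower than -6.38, and none in the second set, and its peaks shared bases with those of another gene on the same strand. ITIH1, ITIH3 and ITIH4 lie beside each other on chromosome 3.

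Among the protease inhibitors, SERPINA3 (antichymotrypsin, an acute phase protein) had the strongest peak, on chromosome 14 from 95081087 to 95084063 (plus strand, 2 blocks). Its fold was 7.69, 6.81, 5.36, 4.65, 6.26, 6.16 and 5.56, lowest in WTAP. AGT (angiotensinogen, a serpin without inhibitor activity) had its strongest control peak on chromosome 1 from 230838983 to 230850043 (minus strand), with 1577 bases in 5 blocks. METTL3 and SETD2 #1 listed that same peak, and the others listed shorter ones over parts of it. The fold of the lowest-p AGT peak was 7.61, 9.82, 4.94, 3.06, 7.97, 3.68 and 3.18. Some peaks of both genes shared bases with those of another gene on the same strand.

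SERPINA1 (alpha-1-antitrypsin, the inhibitor of neutrophil elastase) had 6, 4, 4, 2, 3, 4 and 4 peaks. The lowest p in the control list was at chromosome 14 from 94849452 to 94849601 (minus strand), with a fold of 2.51, and this site was absent from WTAP, SETD2 #1 and both lists of the second set. The 5'-most peak, from 94856761 to 94857030 in the control list, was present in every list, with a fold of 18.9, 38.1, 36.5, 8.64, 10.9, 13.7 and 3.05. WTAP kept this peak and lacked the other 5 control peaks of the gene, and it listed 1 peak absent from the control. That peak, from 94855293 to 94855988, was 11.6-fold with a log10 p of -3.07. Peaks overlapping it were listed in METTL3 (13.2-fold, log10 p -3.63, from 94855323) and METTL14 (7.63-fold, log10 p -4.83). None of these peaks was in the authors' shorter list.

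SERPING1 (C1 inhibitor) had a 5' peak in all lists with a fold of 28.3, 7.61, 15.9, 16.8, 13.4, 10.5 and 6.41, the control being highest. Its 3' peak was absent from SETD2 #1 and from the second set. SERPINC1 (antithrombin) had 1 peak of 1.33-, 1.74- and 1.6-fold in the control, METTL3 and SETD2 #1 lists, none in METTL14 and WTAP, and 2 in each list of the second set. A2M (alpha-2-macroglobulin, a trap for proteases) had 1 peak of 2.78-, 2.93- and 3.12-fold in the control, second control and SETD2 #2 lists, and none in the 4 knockdown lists of the first set.

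Of the adhesive proteins, VTN (vitronectin) had its strongest peak on chromosome 17 from 26696856 to 26697414 (minus strand), with a fold of 3.32, 29.4, 9.15, 10, 6.01, 4.79 and 3.5. The control value was the lowest of the 7 and METTL3 the highest. FN1 (fibronectin) had 1, 0, 0, 0, 1, 2 and 2 peaks, the single control peak being 61 bases long and 1.13-fold.

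**Figure D4:**
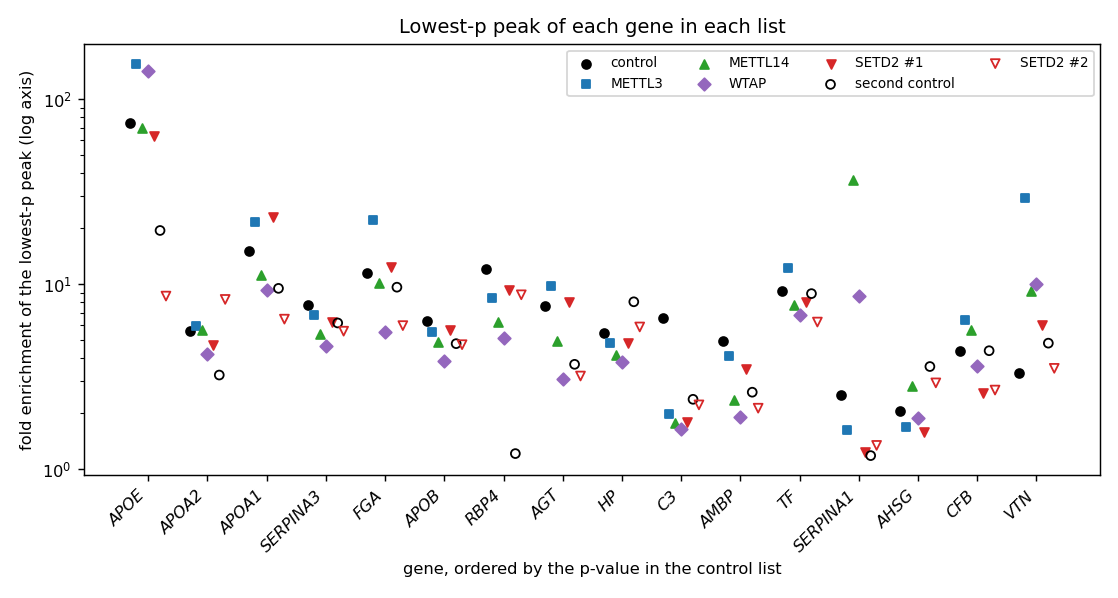
Fold enrichment (log axis) of the lowest-p peak in each of the 7 lists for the 16 genes with the lowest control p among those with a peak in all lists; filled symbols are the first set and open symbols the second. For AGT, C3, RBP4 and SERPINA1 the lowest-p peaks of some lists do not overlap each other.

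Losses were counted as control peaks that shared no base, on the same strand, with any peak of the knockdown list. In METTL3, 17 of 85 control peaks of these genes were absent (20%, exact 95% interval 12.1 to 30.1), against 22.8% of all 33672 control peaks. In METTL14, 23 of 85 were absent (27.1%, 18 to 37.8), against 29.8% of all. In WTAP, 29 of 85 were absent (34.1%, 24.2 to 45.2), against 28.8%. For the 3 writer subunits the share over all peaks thus lay within the interval for these genes. In the shorter lists the WTAP share was 43.3% (30.6 to 56.8) against 27.1% of all, so the interval then lay above the share of all peaks. The shares there were 26.7% (16.1 to 39.7) against 20.4% for METTL3 and 30% (18.8 to 43.2) against 29.3% for METTL14. The intervals are Clopper-Pearson intervals and cover counting error only, and peaks of 1 gene share a transcript.

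In SETD2 #1, 13 of 85 control peaks of these genes were absent (15.3%, 8.4 to 24.7), against 27% of all. In SETD2 #2, 9 of 89 second-control peaks were absent (10.1%, 4.73 to 18.3), against 20.5%. Both shares were below those over all peaks, and both intervals ended below them. With APOB, which holds 15 and 18 of these control peaks, left out, the shares were 18.6% (10.3 to 29.7) and 12.7% (5.96 to 22.7), so that both intervals then took in the shares over all peaks. For SETD2 #1 the share against that of all peaks was 28.3% against 26.2% in the shorter lists, 29.5% against 31.8% at a fold of at least 3 and 17.1% against 25.3% at an FDR of at most 1e-05. For SETD2 #2 it was 11.5% against 22.2%, 34.1% against 29.1% and 11.4% against 21.4% under the same settings. The direction thus turned for SETD2 #1 in the shorter lists and for SETD2 #2 at a fold of at least 3. Between the control lists, without any knockdown, 17 of 85 control peaks (20%, 12.1 to 30.1) were absent from the second control, against 28.6% of all, and 19 of 89 (21.3%, 13.4 to 31.3) the other way, against 15.6%.

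**Figure D5:**
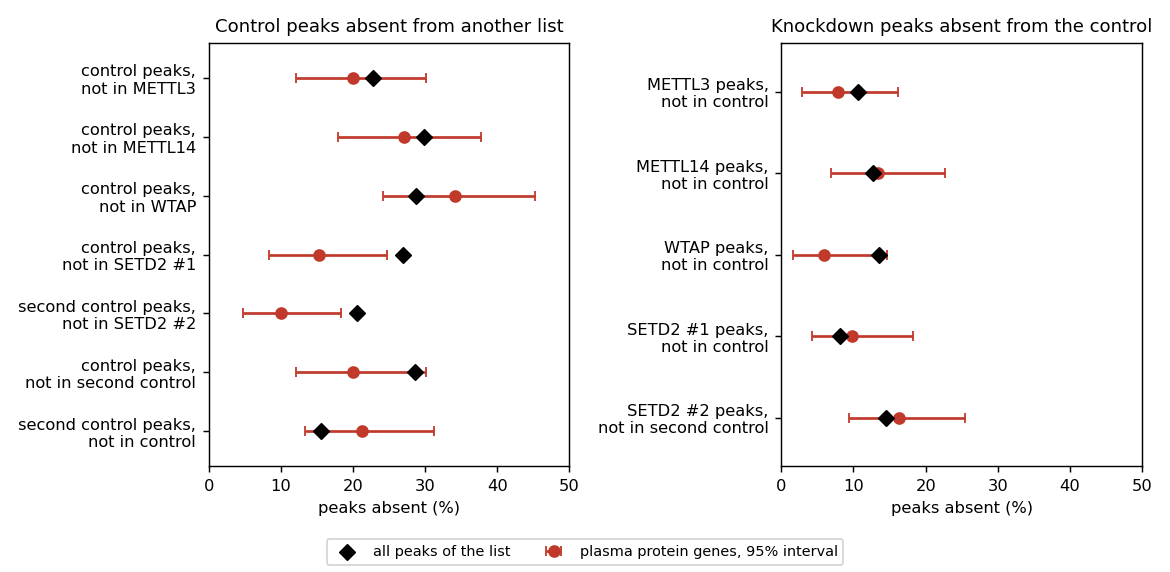
Percent of peaks absent from the compared list for the plasma protein genes (red, with exact 95% intervals for counting error) and for all peaks of the same list (black diamonds): control peaks on the left, knockdown peaks on the right. The red intervals of SETD2 #1 and SETD2 #2 on the left end at 24.7% and 18.3%, below the black diamonds at 27% and 20.5%.

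The peaks lost were mostly of low fold, as were the peaks of these genes in general. Below their list's median fold lay 68 of 85 control peaks (80%) and 61 of 89 second-control peaks (68.5%). Of the 17 control peaks of these genes at or above the list's median fold, 1 was absent from METTL3 and 0 from METTL14, WTAP and SETD2 #1, against 16.8%, 19.1%, 15.9% and 21.4% of all such peaks. The single loss was an ITIH3 peak of 9-fold and 91 bases on chromosome 3 from 52829759 to 52829849, with a log10 p of -3.87. Of the 68 control peaks below the median fold, 16, 23, 29 and 13 were absent in the same order. These were 23.5%, 33.8%, 42.6% and 19.1%, against 28.8%, 40.5%, 41.7% and 32.7% of all peaks below it. From SETD2 #2, 3 of 28 peaks at or above the median fold were absent (10.7% against 19.6% of all), and 6 of 61 below it (9.84% against 21.3%). The 3 were the KNG1 peak above (log10 p -2.82), an ITIH1 peak of 8.02-fold from 52823840 to 52823900 (log10 p -3.44) and an ITIH3 peak of 10.7-fold from 52829759 to 52829819 (log10 p -2.6). None was longer than 61 bases, and none of the lost peaks named here was in the authors' shorter list. Between the controls, 2 of 17 peaks at or above the median fold were absent from the second (22.2% of all) and 2 of 28 from the first (8.46% of all).

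The peaks with strong p-values were also examined. Of the 63 control peaks of these genes with a p at or better than the list's median, 5 were absent from METTL3 (7.94% against 2.42% of all such peaks), 10 from METTL14 (15.9% against 7.9%), 13 from WTAP (20.6% against 7.41%) and 6 from SETD2 #1 (9.52% against 3.24%). In SETD2 #2 it was 2 of 71 (2.82% against 2.66%). Between the controls it was 6 of 63 from the first to the second (9.52% against 7.28%) and 13 of 71 the other way (18.3% against 6.06%), so shares above those of all peaks were also seen without a knockdown. The 13 absent from WTAP lay in A2M, AGT, APOB, C3, FGB, SERPINA1, SERPINA3 and TTR, with folds of 1.16 to 4.41. Whether low fold accounts for these shares was not tested.

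Gains were counted the other way round. Peaks absent from the control numbered 6 of 77 in METTL3 (7.79%, 2.91 to 16.2, against 10.6% of all), 11 of 82 in METTL14 (13.4%, 6.89 to 22.7, against 12.7%), 4 of 67 in WTAP (5.97%, 1.65 to 14.6, against 13.5%) and 8 of 82 in SETD2 #1 (9.76%, 4.31 to 18.3, against 8.07%). In SETD2 #2, 15 of 92 were absent from the second control (16.3%, 9.42 to 25.5, against 14.5%). The share over all peaks lay within each interval. At an FDR of at most 1e-05 the SETD2 #1 share was 13.3% (6.58 to 23.2) against 6.17% of all, so the interval then lay above it. Besides the SERPINA1 and KNG1 peaks above, 2 gained peaks at or above their list's median fold were in METTL14. They were an HP peak of 17.1-fold (log10 p -4.72) from 72088491 to 72088581 and a SERPINA3 peak of 6.79-fold (log10 p -97.6) from 95085829 to 95085949. The second control also listed a SERPINA3 peak over these bases, of 2.57-fold (log10 p -61) from 95085709 to 95085949. Both belonged to a site of overlapping peaks that was present in all 7 lists, at 5.8-fold in the control. SETD2 #2 gained, at or above its list's median fold, a CFB peak of 4.22-fold (log10 p -3.11) from 31914419 to 31914599. It also gained such KNG1 peaks, of 4.53- and 4.69-fold (log10 p -3.05 and -3.21) from 186459534 to 186459654 and from 186459744 to 186459833. Both KNG1 peaks lay within the 12.9-fold KNG1 peak of the first set's control, from 186459504 to 186459893. Their site had a peak in every list but the second control. The CFB peak overlapped a CFB peak of the first set's control. Of METTL14's HP and SERPINA3 gains and SETD2 #2's CFB and KNG1 gains, only the SERPINA3 peak was in the authors' shorter list.

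Some genes were left with no peak at all. In METTL3, 5 of 34 genes had none (A2M, FGB, FGG, FN1 and TTR; 14.7% against 12.9% of all genes with a control peak). In METTL14 it was 7 (A2M, CP, FGB, FGG, FN1, SERPINC1 and TTR; 20.6% against 18%). In WTAP it was 8 (A2M, CP, FGB, FGG, FN1, HPX, SERPINC1 and TTR; 23.5% against 16.6%). In SETD2 #1 it was 4 (A2M, FGB, FGG and TTR; 11.8% against 15.1%). The same control list enters these 4 comparisons. SETD2 #2 lacked only ITIH1 of 32 (3.12% against 10.5%), and CP had a peak there but not in its control. Between the controls, APOC3, CP and ITIH4 had a peak in the first only (8.82% of 34 against 13.4%) and ITIH2 in the second only (3.12% of 32 against 6.73%). None of these genes had a first peak in a METTL3, METTL14, WTAP or SETD2 #1 list, for which the exact 95% upper bounds were 11.6% to 13.2%, against 3.84% to 6.19% of all genes in those lists.

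Overlapping peaks of the 7 lists formed 114 sites in these genes and 44552 in all genes. Of the 114 sites, 45 were present in all 7 lists (39.5% against 33.3%) and 17 in only 1 (14.9% against 21.3%).

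The place of peaks was read along the stretch from the first to the last peak base of each gene over the 7 lists, since no annotation of the build was used here. In the control list, 19 of these genes had more than 1 peak, and in 15 of them (78.9%) the highest fold was at the 5'-most peak, against 53.1% of all genes with several peaks. The exceptions were APOE and HP, highest at the 3'-most peak, and FGA and SERPINA3, highest in between. In other lists that share was 70% against 48.9%, 72.7% against 47.2%, 56.2% against 48.9%, 45% against 45.4%, 66.7% against 59.4% and 38.1% against 50.6%. It was thus close to that of all genes in SETD2 #1 and below it in SETD2 #2. By lowest p, the 5'-most peak led in 10 of 19 genes (52.6% against 29.7% of all) in the control list. In the other lists the share was 40% against 30.5%, 45.5% against 28.7%, 31.2% against 30%, 35% against 30.4%, 33.3% against 33.2% and 33.3% against 32.5%, so that it was close to that of all genes in WTAP and in both lists of the second set.

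Where 1 control peak matched exactly 1 peak of the other list, their lengths were compared. The knockdown peak was narrower for 32 of 59 pairs in METTL3 (54.2% against 56.7% of all pairs), 31 of 52 in METTL14 (59.6% against 62.4%) and 34 of 48 in WTAP (70.8% against 62.2%). It was narrower for 27 of 60 in SETD2 #1 (45% against 64.9%) and 16 of 67 in SETD2 #2 (23.9% against 44.1%). In the second control it was narrower for 27 of 60 control peaks (45% against 60.7%), as many as in SETD2 #1, and the control peak was the narrower one for 19 of 60 (31.7% against 25.1%).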

How the data were processed

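m6A-seq input and IP libraries (42, in 14 groups) of HepG2 cells were analysed through the peak tables that the authors deposited. FastQC 0.11.5, TopHat2 2.1.1 and the build hg19 come from the submitters' processing notes, and per the labels peaks were called with exomePeak on replicates 1 to 3 together. Which version and annotation the caller used is not given in the sources used here. Per the file headers, each peak has a p-value of IP against input, its log10 and the log10 FDR (a score without a fixed range), and the authors' fold enrichment, a linear ratio. The authors' shorter lists hold the deposited peaks that reach 2-fold and a p-value of 1e-05 or lower. Read depth is unknown from these files, so the precision it gives is unknown too.

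Repeated rows (11 to 21 per list) were counted once. Overlaps on the same strand, of at least 1 base of the blocks, were found with bedtools 2.31.1, and shares and exact 95% intervals with Python 3.11.15, numpy 2.4.6, pandas 2.3.3 and scipy 1.17.1. The overlap code was tested on the real control list, with peaks removed at random and with the peaks of 1 chromosome shifted. Sites, connected groups of overlapping peaks of a gene, were defined after the data were seen. The members, role lists and rules were chosen with earlier results of these data known. Genes named are the 16 members with the lowest control p among those with a peak in every list, members without a peak in some list, and members that lost at least 50% of their control peaks in a knockdown list while keeping a peak. The remaining members are named for completeness. Symbols were assigned as described in the text, and no sequence is printed because no hg19 genome was used here. No test was run between conditions.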

Additional observations from a re-analysis of the deposited data

How the results depend on the processing

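With 1 pooled list per condition, leaving out a replicate was not run. No paired analysis was possible because each list pools replicates 1 to 3. A list of further secreted proteins and the transcript regions were not run, for want of a table of identifiers and an annotation of the build.

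Requiring 50% overlap of both peaks raised all shares. Control peaks absent became 32.9% against 35.1% of all peaks (METTL3), 40% against 45.2% (METTL14) and 50.6% against 43.8% (WTAP). They became 25.9% against 38.9% for SETD2 #1 and 24.7% against 31.9% for SETD2 #2. Knockdown peaks absent became 26% against 27.9%, 39% against 35.9%, 37.3% against 35.6%, 24.4% against 28.1% and 27.2% against 27.2% in that order. Between the controls the shares were 31.8% against 45.2% for control peaks and 36% against 40.8% for second-control peaks. With a fold of at least 3, control peaks absent were 29.5% against 31.8% of all (SETD2 #1) and 34.1% against 29.1% (SETD2 #2). Gained peaks were then 16.7% against 16.3% (WTAP) and 32.4% against 19.1% (SETD2 #2, interval 18 to 49.8). Genes left without a peak were then 4 of 26 in METTL14, 5 of 24 in SETD2 #2 and 2 of 24 from the second control to the control. With the shorter lists, 28.3% of control peaks were absent from SETD2 #1 (26.2% of all) and 6.38% of METTL14 peaks were gained (12.8% of all). Genes left without a peak were 2 of 26 in SETD2 #2, 5 of 29 from control to second control and 2 of 26 the other way. With an FDR of at most 1e-05 these were 8 of 31 in METTL3, 3 of 30 in SETD2 #2 and 3 of 30 from the second control to the control. The share of all genes left without a peak was not computed for these settings. The median block bases per gene in the control list were 510, another measure than the mean of 2.5 peaks. Whole spans, same-identifier matches, repeated rows, the 3' end as place and, chosen after seeing the data, leaving out APOB moved none of the shares or counts recomputed under them beyond their interval or 1.5 times. Without APOB, however, the intervals of both SETD2 shares of absent control peaks took in the share over all peaks, and the mean of peaks per gene was 2.12, on the other side of the mean of all genes. With the 3' end as place, the lowest-p control peak lay in the 3' 50% of the peak stretch in 57.9% of 19 genes. At the main setting that share was 42.1% (20.3 to 66.5), against 63.3% of all genes with several peaks. For moves other than those that fewer peaks or a stricter match bring by construction, the cause was not tested.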
